A study of Mus musculus with 3 samples.

Results

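C-type lectin receptor genes were followed across 3 sorted mouse cell populations. The genes were taken by name, as every symbol in the deposited tables that began with Clec and a digit or with Klr, a letter from a to k and a digit, which gave 66 of 23234 genes, 31 Clec and 35 Klr genes. All cells came from wild-type C57BL/6J mice of 6 to 15 weeks that had received LPS, an inflammatory component of the bacterial cell wall, in both nostrils (10 µg in 10 µL). Double-positive cells (DP) were sorted from the nose as CD45+Ly6G+SiglecF+ on day 2 after LPS. Nasal neutrophils were sorted from the nose, and blood neutrophils from peripheral blood, as CD45+Ly6G+SiglecF- cells on day 1. How many mice or cells went into a library is not given in the sources used here. Each population was 1 library, so the differences below carry no replicate error, test or p-value, and for DP the day differs together with the gate.

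C-type lectin receptors are membrane proteins with a carbohydrate-recognition type fold that bind sugars, lipids or proteins of microbes, dying cells and other host cells. The activating myeloid members signal through an immunoreceptor tyrosine motif, either their own or that of a partner chain such as FcRγ (Fcer1g) or DAP12 (Tyrobp), to the kinase Syk and the adaptor Card9. Inhibitory members carry a tyrosine motif that recruits the phosphatases encoded by Ptpn6 and Ptpn11. The Klr genes encode lectin-like receptors named for killer cells, among them the Ly49 receptors (Klra), which bind MHC class I, and the CD94 and NKG2 receptors (Klrd1, Klrc, Klrk1).

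Levels are given in FPKM, which divides the fragments of a gene by its transcript length and by the depth of the library. From the smallest steps between values, depth was estimated as 54700000 fragments in DP, 12800000 in nasal and 54100000 in blood neutrophils, so low values are least exact in nasal neutrophils. Both nasal libraries held RNA of nasal tissue, with all 10 epithelial and olfactory markers above 0 in each, 6 of the 10 at 0 in blood and summed levels of 2309 FPKM in DP, 2022 in nasal and 1.57 in blood neutrophils. The 11 neutrophil markers summed to 12898, 58781 and 79646 FPKM in the same order. S100a8, 1 of the 11, gave 7656 FPKM of the sum in DP and 29818 in nasal neutrophils but was listed at 0 in blood alone. Whether that 0 reflects absent RNA was not tested, and the 3 sums differ in makeup for it. S100a9 stood at 3233, 12277 and 52238 FPKM and Retnlg, another of the 11, at 143, 4692 and 20894. The 8 markers of eosinophils, which also carry SiglecF, summed to 11.2, 16.9 and 6.86 FPKM, with 2, 2 and 3 at 0 and the granule gene Epx at 0 in all libraries. In such bulk samples fewer cells of a type and less RNA per cell cannot be told apart. By its sample code the nasal neutrophil library stands apart from the other 2, and a batch, if there was one, cannot be told apart from the group.

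The summed level of the 66 genes was nearly the same in the 3 libraries, while its makeup differed. The sum was 3163 FPKM in DP, 3022 in nasal and 2938 in blood neutrophils, a spread of 1.08-fold. Scaling between libraries would change these sums, and the spread was not read under other scalings. Clec4n made up 52.8% of the sum in DP, 14.7% in nasal and 2.39% in blood neutrophils. Clec4d made up 3.93%, 39.0% and 33.3% in the same order, and Clec7a 7.97%, 5.75% and 23.2%. Together the activating receptor genes Clec4n, Clec4d, Clec4e, Clec5a and Clec7a held 93.2%, 93.3% and 80.6% of the sum. These are shares within a library, which no scaling between libraries changes.

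**Figure D1:**
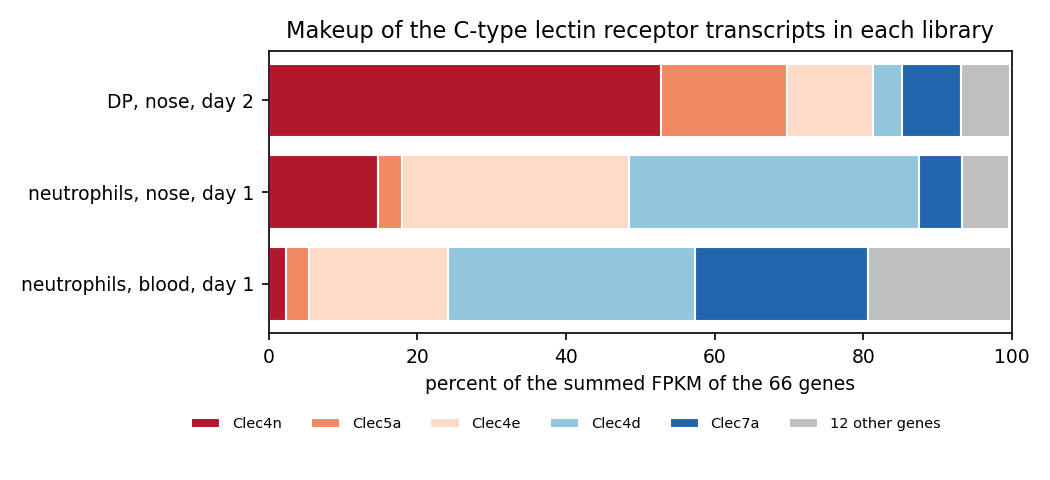
Share of the summed FPKM of the 66 genes (horizontal axis, percent) held by 5 genes and by the 12 other genes that reached a mean of 1 FPKM, in each of the 3 libraries. Clec4n takes 52.8% of the bar in DP and 2.39% in blood neutrophils, while Clec4d takes 3.93% and 33.3%.

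Of the 66 genes, 17 reached a mean of 1 FPKM over the 3 libraries and are called measured here, 15 Clec genes and 2 Klr genes. None of the 17 was listed at 0 in any library. Of the other 49, 5 were at 0 in all 3 libraries and 10 reached 0.5 FPKM in any. Among the 17, the highest level as deposited was in DP for 4 genes, in nasal neutrophils for 5 and in blood neutrophils for 8. The same split over all genes was not counted, so these counts are no result about the 17. They also depend on scaling. Clec4a4, highest in DP as deposited, was lower in DP than in blood neutrophils (-0.34) with log2 differences centred on the median of all genes.

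**Figure D2:**
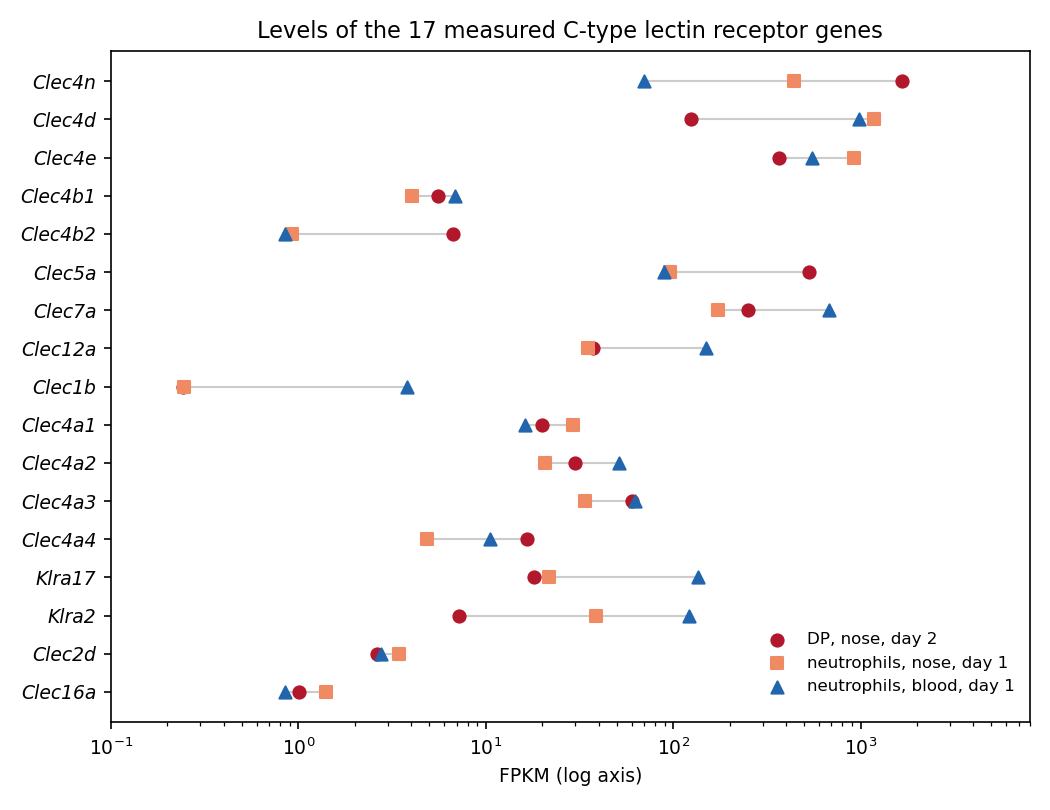
FPKM of the 17 measured genes (horizontal log axis) in the 3 libraries, 1 point per library, with a grey line from the lowest to the highest. Clec4n, Clec5a and Clec4b2 lie farthest right in DP, and Klra17, Clec12a, Clec7a and Clec1b lie farthest right in blood neutrophils.

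The activating receptors of the Dectin-2 group did not differ in 1 direction. Clec4n encodes Dectin-2, which binds fungal mannans and pairs with FcRγ, and its level was 1670.1 FPKM in DP, 444 in nasal and 70.2 in blood neutrophils. It ranked 40 among all genes of the DP library and 1004 among those of blood neutrophils. Clec4d encodes MCL, which binds mycobacterial glycolipid and can form complexes with Mincle or Dectin-2, and its level was 124 FPKM in DP, 1179 in nasal and 978 in blood neutrophils. DP was thus the high library for Clec4n and the low one for Clec4d. The level of Clec4n over that of Clec4d within a library was 13.4 in DP, 0.377 in nasal and 0.0718 in blood neutrophils. Clec4e encodes Mincle, the receptor for mycobacterial cord factor, and stood at 368, 926 and 550.3 FPKM. It too was lowest in DP, and its level over that of Clec4d was 2.96, 0.785 and 0.563. Clec4n, at 1229 nt, and Clec4d, at 1323 nt, have transcripts of similar length.

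The remaining activating members of the group were low. Clec4b2, which encodes the FcRγ-coupled receptor DCAR1, was at 6.66 FPKM in DP, 0.929 in nasal and 0.851 in blood neutrophils. The nasal neutrophil value rests on about 14 fragments. Clec4b1, which encodes the related receptor DCAR, was at 5.56, 4.04 and 6.87 FPKM, so only Clec4b2 of this pair had its highest level in DP.

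Clec5a was the other highly expressed gene with its highest level in DP. It encodes MDL-1, an activating receptor of myeloid cells that pairs with DAP12, and stood at 534 FPKM in DP, 96.5 in nasal and 89.7 in blood neutrophils. Both neutrophil libraries lay close together, 1.08-fold apart. The gene of its partner, Tyrobp, was at 2279, 2224 and 10144 FPKM, so the level of Clec5a over that of Tyrobp was 0.234, 0.0434 and 0.00884. Markers of macrophages and of monocytes and dendritic cells were compared over the same libraries, since such cells express Clec4n and Clec5a too. The 10 macrophage markers in the tables summed to 736 FPKM in DP, 1008 in nasal and 550.1 in blood neutrophils, with 1, 0 and 6 of them at 0. The 12 monocyte and dendritic cell markers summed to 315, 636 and 229 FPKM, with 0, 0 and 1 at 0. Both sums were lower in DP than in nasal neutrophils, though some single markers were not, among them Itgax at 55.4 against 14.3 FPKM and Cd68 at 296 against 181. The part of such cells in the levels of Clec4n and Clec5a was not tested.

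Promoter letters are given for Clec5a, Clec4d and Clec4e. Clec4d and Clec4e are neighbours in the Dectin-2 group, while Clec5a lies elsewhere on the chromosome. The promoter set held no entry for Clec4n, so the contrast of Clec4n with Clec4d cannot be read from these letters. The 250 bases before the most upstream start in RefSeq (GRCm38.p6, a later build than the mm9 of the tables) are printed in the sense of the gene. Capitals mark matches, on either strand, to letters bound by myeloid or inflammatory factors: GAGGAA for PU.1, TTGCNNAA for C/EBP, TGANTCA for AP-1 and the NF-kappaB consensus. Clec5a lies at chr6:40585806-40586055 on the minus strand, Clec4d at chr6:123261857-123262106 on the plus strand and Clec4e at chr6:123289872-123290121 on the minus strand.
Clec5a: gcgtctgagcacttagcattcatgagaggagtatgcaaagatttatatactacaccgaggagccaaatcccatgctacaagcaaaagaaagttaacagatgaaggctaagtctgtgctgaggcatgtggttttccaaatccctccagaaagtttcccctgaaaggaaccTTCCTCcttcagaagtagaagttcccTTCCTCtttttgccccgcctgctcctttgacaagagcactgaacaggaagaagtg
Clec4d: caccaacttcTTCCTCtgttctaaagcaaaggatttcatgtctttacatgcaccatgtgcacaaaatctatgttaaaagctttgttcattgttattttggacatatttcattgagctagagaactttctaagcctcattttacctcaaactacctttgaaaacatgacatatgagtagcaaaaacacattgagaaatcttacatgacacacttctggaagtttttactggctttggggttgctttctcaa
Clec4e: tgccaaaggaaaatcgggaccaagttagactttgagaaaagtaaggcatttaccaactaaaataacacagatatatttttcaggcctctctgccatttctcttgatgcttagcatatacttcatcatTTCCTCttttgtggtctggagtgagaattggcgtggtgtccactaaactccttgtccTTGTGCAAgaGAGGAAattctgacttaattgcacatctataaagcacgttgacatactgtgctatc

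Clec5a held the PU.1 letters at 81 to 76 and 55 to 50 bases before its start. In Clec4e they lay at 123 to 118 and 56 to 51, with C/EBP letters at 66 to 59, and in Clec4d at 240 to 235 alone. Of the 15 measured genes with a promoter entry, 11 held the PU.1 letters and 5 the C/EBP letters. AP-1 letters were found in 1 of the 15, Clec12a, and NF-kappaB letters in 0. Among all 27025 promoters of that length, 23.1% held the PU.1 letters, 9.55% the C/EBP, 6.85% the AP-1 and 3.74% the NF-kappaB letters. A match is a description of the letters, and those of Clec5a, highest in DP, and of Clec4e, lowest there, both include PU.1 letters at nearly the same distance from the start.

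The 3 measured genes of the Dectin-1 group were highest in blood neutrophils. Clec7a encodes Dectin-1, the receptor for fungal beta-glucan, and stood at 252 FPKM in DP, 174 in nasal and 680.1 in blood neutrophils. Clec12a, which encodes an inhibitory receptor that binds uric acid crystals, stood at 37.5, 35.3 and 150.4 FPKM. For both genes the 2 nasal libraries lay close together and under the blood library, and the level of Clec7a over that of Clec12a was 6.72, 4.92 and 4.52. Clec1b encodes CLEC-2, the platelet receptor for podoplanin, and stood at 0.243, 0.245 and 3.82 FPKM. The nasal values rest on about 15 and 3 fragments. The 6 platelet markers summed to 8.34 FPKM in DP, 6.79 in nasal and 26.4 in blood neutrophils, with 0, 1 and 0 at 0. All but Itgb3, at 0.156, 1.71 and 1.06 FPKM, were highest in blood. The part of platelets in the Clec1b level was not tested. The exons of Clec1b also overlap those of Clec9a on the same strand. Clec9a, a dendritic cell receptor for actin of dead cells, and Clec12b were listed at 0 in both nasal libraries and at 0.286 and 0.245 FPKM in blood. Clec1a, also below the filter, stood at 0.230 FPKM in DP, 0.371 in nasal and 0.344 in blood neutrophils.

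The DCIR genes of the Dectin-2 group differed by at most 3.40-fold between any 2 libraries, for Clec4a4 in DP against nasal neutrophils. Clec4a2, which encodes the inhibitory receptor DCIR, stood at 30.1 FPKM in DP, 20.7 in nasal and 51.7 in blood neutrophils. Clec4a3 was at 60.3, 33.8 and 62.3 FPKM, and Clec4a1 at 19.98, 29.2 and 16.2. Clec4a4, which encodes the inhibitory receptor DCIR2, was highest in DP as deposited, at 16.6 FPKM against 4.87 and 10.5. Clec4a4 shares 15.7% of its 50-base stretches with Clec4a2, so reads of the 2 genes may have been divided between them. The level of Clec4a4 over that of Clec4a2 was 0.550 in DP, 0.235 in nasal and 0.203 in blood neutrophils. Among the other measured genes the largest such share was 8.68%, in Clec4b1.

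Only 2 of the 35 Klr genes were measured, both of the Ly49 family. Klra17 encodes Ly49Q, an MHC class I receptor known from plasmacytoid dendritic cells and neutrophils, and stood at 18.2 FPKM in DP, 21.8 in nasal and 135 in blood neutrophils. Klra2 encodes Ly49B, an inhibitory receptor of myeloid cells, and stood at 7.16, 39.0 and 122 FPKM. The 2 genes were near equal in blood, but DP lay 5.44-fold under nasal neutrophils for Klra2 and 1.20-fold for Klra17, so that the level of Klra17 over that of Klra2 was 2.54, 0.559 and 1.11. Neither shares a 50-base stretch with another gene. The remaining 19 Klra genes each stayed at or under 0.576 FPKM, the level of Klra7 in blood, and their summed level was 1.44, 0.912 and 1.34 FPKM. Many of those 19 share sequence, up to 39.8% of the 50-base stretches in Klra10, so their single values are uncertain.

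The 2 expressed Ly49 genes lie at the ends of their cluster, in which 13 Ly49 genes were placed. Near-silent Ly49 genes and 5 other protein-coding genes lie between them. Not all of the near-silent Klra genes were placed in the cluster. Their promoters are shown with that of Klra5, the neighbour of Klra17, which was listed at 0 in both nasal libraries and at 0.0898 FPKM in blood. Capitals mark GCAANTTCCTC, which joins only a part of the C/EBP letters (GCAA, the complement of TTGC) to the PU.1 letters. It was picked after the sequences were seen. On GRCm38.p6, all on the minus strand, Klra17 lies at chr6:129876673-129876922, Klra2 at chr6:131247363-131247612 and Klra5 at chr6:129913225-129913474.
Klra17: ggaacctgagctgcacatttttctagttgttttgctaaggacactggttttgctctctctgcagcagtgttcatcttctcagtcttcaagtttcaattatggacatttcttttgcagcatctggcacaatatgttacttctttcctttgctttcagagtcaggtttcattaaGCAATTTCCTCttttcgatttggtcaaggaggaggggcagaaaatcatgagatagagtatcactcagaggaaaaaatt
Klra2: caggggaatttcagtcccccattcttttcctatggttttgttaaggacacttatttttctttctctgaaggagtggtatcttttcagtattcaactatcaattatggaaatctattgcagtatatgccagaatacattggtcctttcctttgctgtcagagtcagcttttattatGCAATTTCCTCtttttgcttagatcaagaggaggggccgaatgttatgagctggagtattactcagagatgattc
Klra5: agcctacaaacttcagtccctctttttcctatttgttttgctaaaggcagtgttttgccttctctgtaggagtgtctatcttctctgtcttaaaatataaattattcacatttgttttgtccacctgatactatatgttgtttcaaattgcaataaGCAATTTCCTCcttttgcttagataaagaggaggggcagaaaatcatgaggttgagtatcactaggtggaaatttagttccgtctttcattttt

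The joined letters lay 78 to 68 bases before the start in Klra17, 75 to 65 in Klra2 and 94 to 84 in Klra5. The full C/EBP letters took in their GCAA at 82 to 75 in Klra17 and at 79 to 72 in Klra2. In Klra5 the bases before GCAA do not complete the C/EBP letters. The other near-silent Ly49 genes were not read for this. The joined letters occurred in 8 of the 11 Ly49 promoters with an entry and in 0.126% of all promoters. Klra17 and Klra2 were identical at 74.6% of aligned positions. Klra17 was identical at 64.5% to Klra5 and at 79.0% to Klra4, whose level was under 0.001 FPKM in every library. Because the joined letters were picked from Ly49 promoters, their share there cannot be weighed against that of all promoters. The joined letters, without the rest of the C/EBP letters, occurred in both expressed and near-silent Ly49 genes. Their part in the levels was not tested.

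The remaining lectin-like receptor genes were low in every library. The 33 Klr genes below the mean of 1 FPKM summed to 5.96 FPKM in DP, 3.90 in nasal and 3.26 in blood neutrophils. The highest was Klre1 at 1.09, 0.200 and 0.144 FPKM, followed by Klrd1, which encodes CD94, at 0.761, 0.428 and 0.591, and Klrb1f at 0.735, 0.210 and 0.0226. In DP these values rest on about 77, 38 and 68 fragments. Klrc1, which encodes NKG2A, was at 0.675, 0.369 and 0.192 FPKM but shares 38.6% of its 50-base stretches with other genes. Klrk1, which encodes NKG2D, was at 0.431, 0.604 and 0.117 FPKM. Markers of NK and T cells did not share 1 direction. The NK cell receptor gene Ncr1 was at 0.854, 0.113 and 0.135 FPKM and Nkg7 at 9.46, 2.91 and 2.77, both highest in DP. Gzmb, at 0.208, 0.937 and 0.0702 FPKM, and Il2rb, at 0.108, 0.684 and 0.157, were highest in nasal neutrophils. All 18 markers of NK and T cells summed to 74.8, 171 and 34.3 FPKM, with 2, 0 and 2 at 0, of which Ccl5 gave 49.7, 156 and 10.5. The part of NK and T cells in the low Klr levels was not tested.

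Clec genes outside the myeloid receptors were low as well. Clec2d, which encodes Clr-b, the ligand of the NK receptor NKR-P1B, stood at 2.64 FPKM in DP, 3.44 in nasal and 2.77 in blood neutrophils. Clec16a, named with the family but encoding an intracellular regulator of mitophagy, stood at 1.01, 1.41 and 0.846 FPKM. Neither differed by more than 1.67-fold between any 2 libraries. Among the 16 Clec genes below the filter, Clec10a, a galactose-type lectin of macrophages and dendritic cells, was at 0.0195, 2.06 and 0.0197 FPKM. Clec11a, a secreted growth factor gene, was at 1.27, 0.243 and 0.0389 FPKM. Clec14a, an endothelial gene, was at 1.000 and 0.787 FPKM in the nasal libraries and listed at 0 in blood, and the 8 endothelial and stromal markers summed to 7.84, 16.2 and 5.91 FPKM, with 0, 0 and 3 at 0.

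Levels were also read by gene position along chromosome 6, where 51 of the 59 genes matched to RefSeq lie. All 9 genes of the Dectin-2 cluster, which stand in a row with 0 other protein-coding genes between them, were measured. Its sum was 2301 FPKM in DP, 2642 in nasal and 1747 in blood neutrophils. Within it the 3 highest genes, Clec4n, Clec4d and Clec4e, are adjacent at 1 end. In the Dectin-1 cluster 3 of 6 genes were measured, with sums of 290.1, 209.7 and 835 FPKM, and the highest, Clec12a and Clec7a, are its outer genes. In the cluster of Clr and NKR-P1 genes 1 of 9 was measured, and in that of CD94 and NKG2 genes 0 of 8. The Ly49 cluster had 2 of 13 measured, with sums of 26.7, 61.4 and 258 FPKM.

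**Figure D3:**
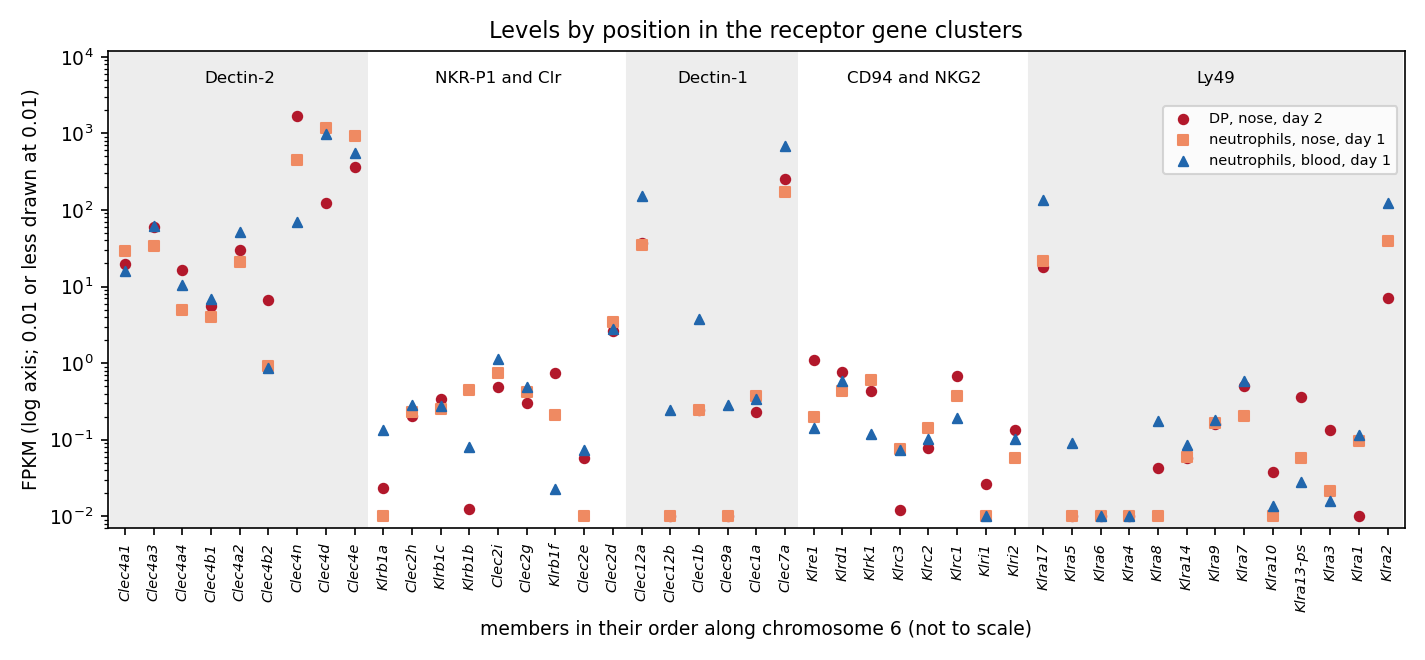
FPKM (vertical log axis, values of 0.01 or less drawn at 0.01) of 45 genes in their order along chromosome 6, grouped by gene cluster, 1 point per library. All 9 genes of the Dectin-2 cluster lie at 0.851 FPKM (Clec4b2 in blood neutrophils) or above, and in the Ly49 cluster only the outer genes Klra17 and Klra2 reach 1 FPKM.

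DP were compared with nasal neutrophils to ask how the SiglecF-positive Ly6G-positive cells of the nose differ from the SiglecF-negative ones. A gene was counted as higher or lower where log2(FPKM + 1) differed by 2 or more, a 4-fold rule of size. Clec5a was higher in DP, with a difference of 2.46, and Clec4d and Klra2 were lower, at -3.24 and -2.29. Clec4b2, at 1.99, and Clec4n, at 1.91, lay just under the rule, and Clec4e was at -1.33. That is 1 of 17 measured genes higher and 2 lower, where 8.42% of the 10719 genes with a mean of 1 FPKM were higher and 3.62% lower. The median difference was 0.08 for the 17 genes and 0.57 for all genes. Relative to that shift, Clec4d was at -3.81, Klra2 at -2.87, Clec5a at 1.88 and Clec4n at 1.33. With differences centred in this way 0 of the 17 were higher and 2 lower, against 3.36% and 7.21% of all genes.

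Nasal neutrophils were compared with blood neutrophils of the same gate and day. Clec4n was higher in the nose, with a difference of 2.64 on the log2(FPKM + 1) scale. Klra17 and Clec12a were lower, at -2.58 and -2.06, and Clec7a, at -1.96, and Clec1b, at -1.95, lay just under the rule. Clec4d, at 0.27, and Clec5a, at 0.10, were close to 0. In all, 1 of the 17 was higher and 2 were lower, where 13.1% of all genes were higher and 3.23% lower. The median difference was -0.64 for the 17 genes and 0.41 for all genes. Relative to that shift Clec4n was at 2.23, Klra17 at -2.99, Clec12a at -2.47, Clec7a at -2.37, Clec1b at -2.36 and Klra2 at -2.03, so that 1 was higher and 5 lower, against 9.03% and 5.68% of all genes.

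DP against blood neutrophils differ in tissue, day and gate at once, and share their libraries with the comparisons above. Clec4n had the largest difference of the 17 genes, at 4.55 on the log2(FPKM + 1) scale, with Clec5a at 2.56 and Clec4b2 at 2.05 also higher in DP. Klra2, Clec4d and Klra17 were lower, at -3.91, -2.97 and -2.83. Clec12a, at -1.98, lay just under the rule. The counts were 3 higher and 3 lower of 17, where 24.0% of all genes were higher and 3.57% lower. The median difference was -0.26 for the 17 genes and 0.95 for all genes. Relative to that shift Clec4n was at 3.60, Clec5a at 1.61 and Clec4b2 at 1.10, while Klra2, Clec4d and Klra17 were at -4.86, -3.92 and -3.78, and the counts were 1 higher and 6 lower, against 10.4% and 9.06% of all genes.

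**Figure D4:**
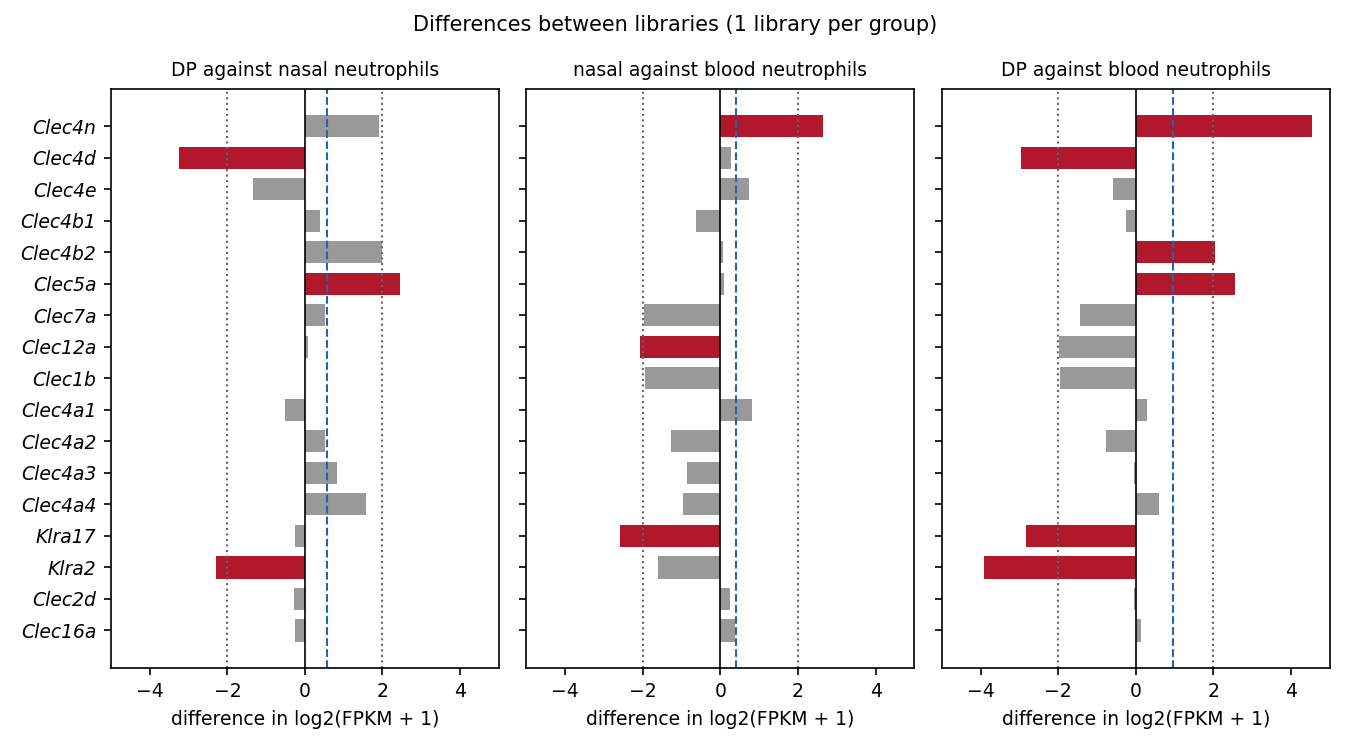
Difference in log2(FPKM + 1) of the 17 measured genes in the 3 comparisons, 1 bar per gene, red where it reaches 2 or more in size (dotted lines), with the median of all genes as a dashed line. Clec4n is positive in all 3 panels, and Clec4d is at -3.24 and -2.97 where DP is compared and at 0.27 between the neutrophil libraries.

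The partner chains and kinases through which these receptors signal were present in all 3 libraries. Fcer1g, the chain used by Dectin-2, MCL and Mincle, was at 4408 FPKM in DP, 2936 in nasal and 4344 in blood neutrophils, above each of its receptors. The level of Clec4n over that of Fcer1g was 0.379, 0.151 and 0.0162. Tyrobp and Hcst, the DAP12 and DAP10 chains, were both highest in blood, the latter at 102, 41.2 and 373 FPKM. Syk, the kinase that binds the phosphorylated chains, was at 27.3, 78.7 and 36.4 FPKM. Of the 11 measured kinase and phospholipase genes, 0 were higher and 1 lower in DP than in nasal neutrophils by the 4-fold rule, namely Tec at 0.50 against 5.26 FPKM, where 8.42% of all genes were higher and 3.62% lower. Centred on the median of all genes, Tec, Prkcd and Syk were lower, at -2.64, -2.09 and -2.07, where 7.21% of all genes were. In nasal against blood neutrophils 0 were higher and 0 lower, where 13.1% and 3.23% of all genes were.

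Card9, the adaptor downstream of Syk, was at 1.73 FPKM in DP, 7.07 in nasal and 3.91 in blood neutrophils. Its partners Bcl10 (61.5, 131 and 131 FPKM) and Malt1 (5.94, 19.4 and 4.30) were also lower in DP than in nasal neutrophils, and the median difference of the 4 genes of this complex was -1.32. None of the 4 passed the 4-fold rule in any comparison as deposited. Of all genes, 8.42% were higher and 3.62% lower in DP against nasal neutrophils. The shares were 13.1% and 3.23% in nasal against blood neutrophils, and 24.0% and 3.57% in DP against blood neutrophils. Centred on the median of all genes, Card9 (-2.14) and Malt1 (-2.13) were lower in DP than in nasal neutrophils, where 7.21% of all genes were. Bcl10 (-2.03), also centred, was lower in DP than in blood neutrophils, where 9.06% of all genes were. Rel, an NF-kappaB subunit that this pathway activates, was at 17.3, 44.8 and 7.39 FPKM. It was the only 1 of 5 measured transcription factor genes past the rule between nasal and blood neutrophils (2.45, and 2.04 centred). Centred, 9.03% of all genes were higher there. Rela, another of the 5, was at 24.4, 79.8 and 24.6 FPKM and, when centred, lower in DP than in nasal neutrophils (-2.24). The phosphatase gene Ptpn6, used by the inhibitory receptors, was at 379, 301 and 415 FPKM, and 0 of the 5 measured genes of inhibitory phosphatases, ligases and adaptors passed the rule in any comparison as deposited. Centred, Cbl was lower in DP than in nasal neutrophils (-2.33) and Dok3 lower in DP than in blood neutrophils (-2.09). The shares of all genes are those given above.

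**Figure D5:**
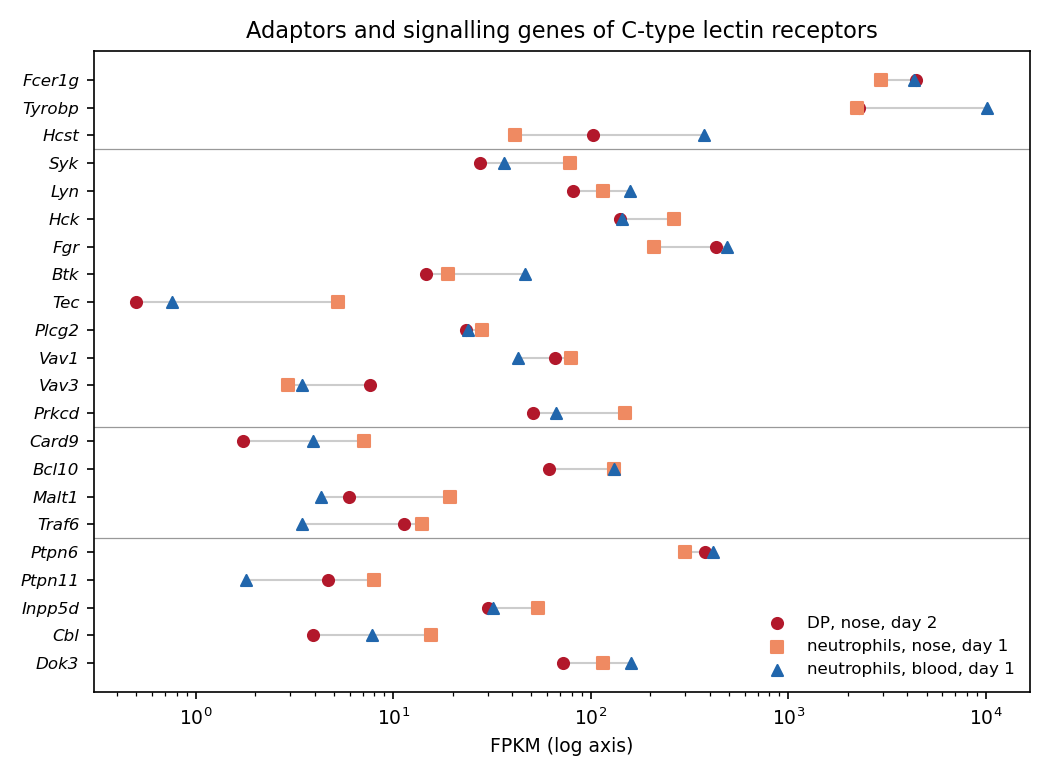
FPKM (horizontal log axis) of measured genes that act with C-type lectin receptors, in 4 groups from top to bottom: partner chains, kinases and phospholipase, the Card9 complex and inhibitory regulators. Syk, Card9, Bcl10 and Malt1 lie farther left in DP than in nasal neutrophils, and Tyrobp lies farthest right in blood neutrophils.

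Receptors with a C-type lectin fold but other names were read from a fixed list of 26, of which 14 were measured. In DP against nasal neutrophils 1 of the 14 was higher, where 8.42% of all genes were, namely Cd72 (106 against 13.8 FPKM), a B cell and myeloid inhibitory receptor. Olr1, which encodes the oxidised LDL receptor LOX-1, was lower (3.02 against 57.8 FPKM). In blood neutrophils Cd72 stood at 2.44 and Olr1 at 0.0743 FPKM. B cell markers, which include no Cd72, summed to 4.75 FPKM in DP, 43.5 in nasal and 63.4 in blood neutrophils over the 5 genes in the tables, with 1, 0 and 0 at 0. Cd69, an early activation receptor, was at 163, 144 and 9.84 FPKM, and Cd302 at 67.6, 32.7 and 7.98. The mannose receptor gene Mrc1 was at 0.279 and 0.987 FPKM in the nasal libraries and listed at 0 in blood.

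Ligands of the receptors showed a contrast among those of NKG2D. Raet1d was at 15.9 FPKM in DP, 0.642 in nasal and 0.461 in blood neutrophils, and Raet1e at 4.2, 0.248 and 0.0872. Against nasal neutrophils both were higher in DP by the 4-fold rule, the only 2 of 9 measured ligand genes to be so, and 0 were lower, where 8.42% of all genes were higher and 3.62% lower. Centred on the median of all genes, Raet1d stayed past the rule (2.79), Raet1e did not (1.48), and Cdh1, the gene of E-cadherin, was lower (-2.19). The Raet1 genes are close copies, so reads may have been divided among them. H60b, another NKG2D ligand gene, was instead highest in blood, at 0.607, 0.855 and 9.14 FPKM. H2-K1, which encodes an MHC class I molecule bound by Ly49 receptors, was at 349, 492 and 274 FPKM. Pdpn, the podoplanin gene, was at 7.03, 6.31 and 0.424 FPKM, higher in both nasal libraries, where the epithelial and olfactory markers were also higher as given above; the part of nasal tissue in that level was not tested.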

How the data were processed

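RNA of the 3 sorted populations was made into low-input libraries, per the labels' protocols. TopHat2 2.0.8, Cufflinks 2.1.1, Bowtie2 2.1.0 and the mm9 genome were used, per the submitters' processing notes; settings are not given in the sources. The tables the authors deposited name no unit, and the values were taken as FPKM from the Cufflinks row header and from their sums of 637561, 620230.4 and 663027. FPKM are estimates, so no count model was used. Values under 1e-06 were set to 0. Members and gene lists were chosen with earlier results of these data known. Genes with a mean of 1 FPKM or more (10719) were compared as differences of log2(FPKM + 1), which understates the ratio of low genes. All 17 members above that mean are named, with others that complete a family or cluster.

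Depth was read from the step that most low values of single-transcript genes over 1500 nt shared within 6% (59 genes in DP, 69 in nasal and 49 in blood neutrophils). It is approximate, as are the fragment numbers, which use the longest coding transcript of GENCODE M21. Of the 66 members, 57 matched that annotation and 59 RefSeq. Shared sequence was the share of a gene's 50-base stretches found in transcripts of other genes. Promoters came from RefSeq (GRCm38.p6) and were aligned with Biopython 1.88. Alternatives were other pseudocounts, filters, scalings and a 2-fold rule, and, added after the values were seen, a correction for transcript length. Python 3.11.15, pandas 2.3.3 and numpy 2.4.6 were used. Some genes of the related lists are not reported here.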

Additional observations from a re-analysis of the deposited data

How the results depend on the processing

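No paired analysis was possible because each group held 1 library. The counts of measured members higher or lower by 4-fold are small and moved with the settings. In DP against nasal neutrophils, the count higher (1) was 2 with a pseudocount of 0.1 or values rescaled to a sum of 1000000, 4 at 2-fold and 0 with centred differences, upper-quartile scaling or the length correction, and the count lower (2) was 1 with a pseudocount of 5 and 3 at 2-fold. The median there (0.08) was -0.49 with centred differences, -0.17 with upper-quartile scaling and -0.47 with the length correction. In nasal against blood neutrophils, the count lower (2) was 1 with a pseudocount of 5, 5 with centred differences or the length correction, 4 with upper-quartile scaling and 6 at 2-fold, and the median (-0.64) was 0 over all 66 genes without the filter. In DP against blood neutrophils, the count higher (3) was 1 and the count lower (3) was 6 with centred differences, upper-quartile scaling or the length correction. There the count lower was 5 with a pseudocount of 0.1 and 6 at 2-fold, and the median (-0.26) was -1.22, -0.99 and -1.61 under those 3 scalings. The cause was not tested. No called gene reversed under any setting run. Clec5a fell under the rule in DP against nasal neutrophils when centred (1.88), with upper-quartile scaling (1.80) and with the length correction (1.99). It did so against blood as well (1.61, 1.71 and 1.64), as did Clec4b2 (1.10, 1.47 and 0.65, and 0.99 with a pseudocount of 5). Klra2 in DP against nasal neutrophils (-1.85) and Clec12a in nasal against blood neutrophils (-1.95) did so with a pseudocount of 5, and Clec12a also with rescaled sums (-1.97). Clec4d in both comparisons of DP, Clec4n and Klra17 in both comparisons with blood, and Klra2 in DP against blood stayed past 4-fold under every setting run. Values in nasal neutrophils rest on the fewest fragments.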
